A study of Mus musculus with 15 samples.

Results

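OX40 (Tnfrsf4) and 4-1BB (Tnfrsf9) are the receptors that the agonist antibodies of this study bind, and they are described here with the receptors and adaptors that work beside them in CD8+ T cells. The 10 genes were set by symbol, with earlier results of these data known. They are 5 receptors of the TNF receptor superfamily (Tnfrsf4, Tnfrsf9, Tnfrsf18, Tnfrsf1b and Cd27), 4 adaptors (Traf1, Traf2, Traf3 and Traf5) and the ubiquitin ligase Birc3. All 10 were found among 55536 annotated genes of the count table. All 10 also had transcript counts and values of percent spliced in (PSI), the fraction of transcripts that keep a given exon, start or end.

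Receptors of this family are switched on when a trimeric ligand, or an antibody in its place, clusters them on the cell surface. OX40, 4-1BB, GITR (the product of Tnfrsf18), TNFR2 (the product of Tnfrsf1b) and CD27 carry no death domain. Their tails recruit TRAF proteins, which bring in the ligases cIAP1 and cIAP2, and the complex drives NF-kB and MAP kinase signalling. In T cells OX40 and 4-1BB appear after antigen contact and sustain expansion and survival, whereas CD27 is already present on resting cells.

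The cells were OT-I T cells, whose transgenic receptor recognises the SIINFEKL peptide of ovalbumin, from donors labelled OT-1 Tg C57BL/6J that, per the study's methods, also lacked Rag1 or Rag2. They were given to C57BL/6J recipients, which have their own lymphocytes, and were sorted from spleen and lymph nodes. Per the study's methods the sort took CD8+ cells with the CD45.1 marker of the donors and the Vα2 and Vβ5 chains of the OT-I receptor, a gate meant to leave out B cells and CD8 T cells of the recipient. In the Ag group (5 libraries) recipients were given the peptide with rat IgG, and in the Ag+Costim group (5 libraries) the peptide with anti-OX40 and anti-41BB antibodies. The labels give day 4 for the collection, the study's methods a slightly earlier time, and no age is given per library. The study describes the libraries as biological replicates, with 5 mice per group, but the labels do not tie a library to a mouse, so p-values measure the spread between these libraries. Naive libraries were not analysed here.

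The libraries held between 59598556 (Ag replicate 3) and 639070261 estimated counts, and all were run on lane 4. In most libraries these totals exceed the reads per sample given in the study's methods. They are estimates and not a measure of depth. All 7 CD8 T cell markers were present in every library, with a summed level of 4233 to 8117 CPM (counts scaled to a common library total by the TMM method) in Ag and of 5870 to 6869 CPM in Ag+Costim. The Ag libraries differed among themselves. A count above 0 was found for 48058, 51778 and 40441 genes in Ag replicates 1, 3 and 4 and for 21779 and 20714 genes in Ag replicates 2 and 5, against 28727 to 30340 in Ag+Costim. The summed level of 8 genes of dividing cells was 495 and 519 CPM in Ag replicates 1 and 4, 2444 CPM in replicate 3, and 4200 and 4520 CPM in replicates 2 and 5, against 3919 to 4788 CPM in Ag+Costim. The 6 B cell markers summed to 1169, 1643 and 1423 CPM in Ag replicates 1, 3 and 4 and to 971 CPM or less in the other libraries. Of these, Ighm was at 602 CPM in Ag replicate 3, the lowest of the Ag libraries. The other markers of the list were highest in that library, with Ms4a1 at 54.9 CPM, against 0.239 CPM in Ag replicate 2. The 5 markers of CD4 and regulatory T cells summed to 60.5 and 59.2 CPM in Ag replicates 1 and 4. Their sums were 11.1 to 27.4 CPM in the other Ag libraries and 10.1 to 15.4 CPM in Ag+Costim. Ikzf2 (42.5 and 32.8 CPM), Zbtb7b and Cd40lg were highest in Ag replicates 1 and 4. Cd4 was at 1.69 and 0.714 CPM there and highest in Ag replicate 3 (5.07 CPM). Foxp3 was at 0.926 CPM or less in every library. The 6 erythroid markers summed to 1103 CPM in Ag replicate 3 and to 126 CPM or less elsewhere. The 7 myeloid and dendritic cell markers summed to 49.3 to 124 CPM in Ag and to 79.7 to 162 CPM in Ag+Costim. The 4 NK cell markers summed to 17.5 to 61.9 CPM in Ag and to 9.52 to 26.6 CPM in Ag+Costim. No marker of any list was at 0 in every library. In bulk RNA, fewer cells of a type and less RNA per cell cannot be told apart, and the part of these differences in the values below was not tested.

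The sequences that bear on the forms of these genes are shown first. Each of the 3 stretches below is coding sequence that some transcripts carry and others lack, and capitals mark that stretch. The Tnfrsf9 exon (mm10 chr4:150935422-150935556, plus strand, 135 bases) codes for the transmembrane segment of 4-1BB, and its absence is known to give a soluble receptor. The Traf2 stretch is the last 21 bases of chr2:25538845-25538904 (minus strand), between alternative donor sites of a coding exon that belongs to the RING region of TRAF2. The Traf3 exon (chr12:111251130-111251204, plus strand, 75 bases) is a cassette exon that codes for a piece between the RING and TRAF domains of TRAF3.
Tnfrsf9 exon: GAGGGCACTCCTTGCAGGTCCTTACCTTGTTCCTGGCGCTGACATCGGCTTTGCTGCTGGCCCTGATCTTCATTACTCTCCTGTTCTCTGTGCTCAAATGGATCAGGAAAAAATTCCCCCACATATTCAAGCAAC
Traf2 exon end: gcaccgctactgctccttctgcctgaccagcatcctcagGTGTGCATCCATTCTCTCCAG
Traf3 exon: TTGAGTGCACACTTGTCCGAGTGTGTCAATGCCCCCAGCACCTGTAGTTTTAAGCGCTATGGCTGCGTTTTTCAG

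The question of the comparison was how the RNA of these genes differed between Ag+Costim and Ag. None of the 10 genes passed edgeR's quasi-likelihood test at a Benjamini-Hochberg (BH) adjusted p of 0.05, and neither did any of the 24262 genes tested (0%). At an unadjusted p under 0.05, 2 of the 10 genes (Tnfrsf1b and Traf2, both higher in Ag+Costim) stood against 18.6% of all genes. At that p, 1915 of all genes were higher and 2586 lower, and 1746 and 243 of the 8626 genes at 10 CPM or more. With DESeq2 only Tnfrsf1b passed, higher in Ag+Costim, where 2.58% of all genes were called higher and 19.8% lower. Of the 8626 genes at a mean of 10 CPM or more, DESeq2 called 848 higher and 267 lower. All of the 10 but Tnfrsf4 reached that level. With limma's voom and a quality weight per library, 6 of the 10 passed, 3 higher and 3 lower. Ag replicates 2 and 5 had weights of only 0.0986 and 0.0656, so every voom value here rests mostly on the other Ag libraries. Voom called 25.8% of all genes higher and 26.4% lower, and 4975 and 1082 of those 8626 genes. All groups overlapped except for Tnfrsf1b, against 4.48% of genes with every Ag+Costim library above every Ag library and 1.13% with every one below. Among the 8626 better expressed genes, 976 lay apart as higher and 19 as lower. The median log2 fold change of the 10 genes was 0.09, against 0.24 over the 8626 genes at a mean of 10 CPM or more and -0.32 over all genes tested. The median of the better expressed genes depended on the scaling (0.12 with DESeq2's size factors and 0.00 with total counts), so a fold change near it carries no direction of its own. All 10 log2 fold changes were lower with total counts as the scale, at 0.31 for Tnfrsf1b, 0.11 for Traf2, 0.31 for Tnfrsf9, -0.65 for Cd27 and -0.75 for Traf1.

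**Figure D1:**
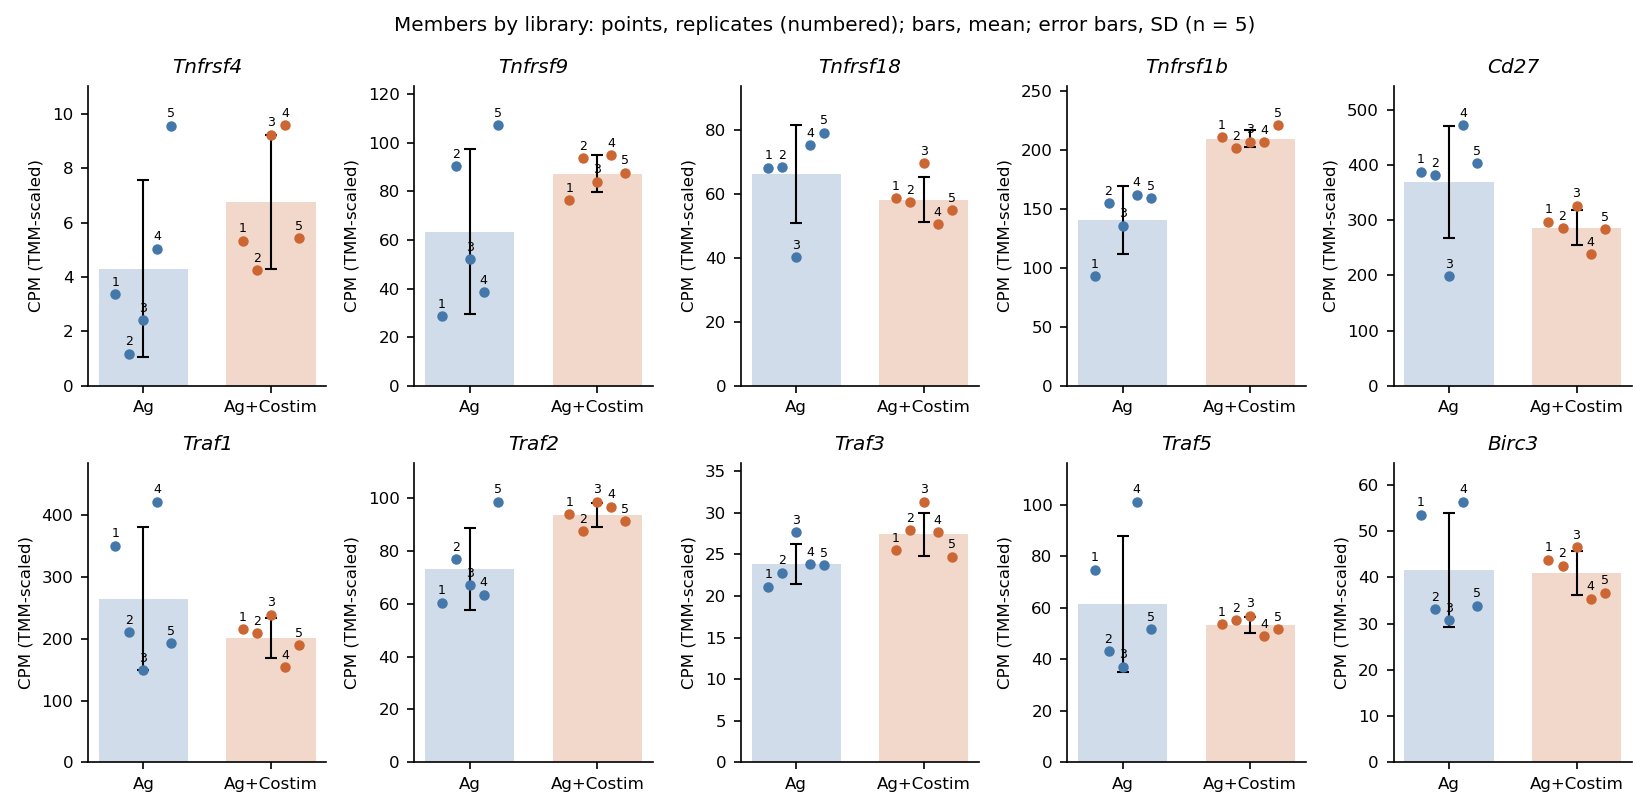
CPM (TMM-scaled) of each of the 10 genes, with a point for each numbered library, the mean as a bar and the SD as an error bar (n = 5 per group). The points of the Ag libraries spread more widely than those of Ag+Costim, and Tnfrsf1b is the gene in which no Ag library reaches the Ag+Costim range.

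Of the receptors, Tnfrsf4 (ENSMUSG00000029075.6, chr4:156013843-156016612, plus strand), the first target of the antibodies, was the least abundant. It was at 3.36, 1.18, 2.41, 5.04 and 9.55 CPM in Ag replicates 1 to 5 and at 5.33, 4.26, 9.23, 9.58 and 5.41 CPM in Ag+Costim replicates 1 to 5. Ag replicate 5 was as high as the highest Ag+Costim libraries, and the other Ag libraries lay at or below 5.04 CPM. Means were 4.31 ± 3.25 CPM (SD, n = 5) in Ag and 6.76 ± 2.46 CPM in Ag+Costim. The log2 fold change was 0.65 (SE 0.49, 95% interval -0.44 to 1.74, edgeR BH-adjusted p = 0.419), an interval that holds both no difference and a rise of more than 1 on the log2 scale. Without Ag replicate 5 it was 1.20.

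Tnfrsf9 (ENSMUSG00000028965.13, chr4:150914562-150946102, plus strand), the second target, was at 28.7, 90.3, 52.2, 38.5 and 107 CPM in Ag and at 76.4, 93.5, 84.0, 94.7 and 87.7 CPM in Ag+Costim. The Ag libraries covered a 3.73-fold range that enclosed the 1.24-fold range of Ag+Costim. The libraries low in Tnfrsf9, Ag replicates 1, 4 and 3, were also those low in the genes of dividing cells. Means were 63.4 ± 33.9 CPM and 87.3 ± 7.50 CPM, with a log2 fold change of 0.46 (SE 0.32, 95% interval -0.26 to 1.18, edgeR BH-adjusted p = 0.388). It fell to 0.28 without Ag replicate 1 and was 0.75 without Ag replicate 5. limma's voom, which gave Ag replicates 2 and 5 weights of 0.0986 and 0.0656 and so rested on the other Ag libraries, put the difference at 1.24 on the log2 scale (adjusted p = 7.55e-05).

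Tnfrsf1b (ENSMUSG00000028599.10, chr4:145213463-145246870, minus strand) codes for TNFR2, the TNF receptor of activated and regulatory T cells. Its levels were 92.7, 155, 136, 162 and 159 CPM in Ag, against 211, 202, 207, 206 and 221 CPM in Ag+Costim. Every Ag+Costim library was above every Ag library, and the Ag+Costim libraries lay within a 1.10-fold range. Means were 141 ± 28.8 CPM and 209 ± 7.25 CPM. Its log2 fold change was 0.57 (SE 0.16, 95% interval 0.21 to 0.93), with an unadjusted p of 0.00513 and a BH-adjusted p of 0.201 in edgeR, so the call depends on the tool. It was 0.45 in DESeq2 (adjusted p = 0.0155) and 0.70 with limma's voom (adjusted p = 0.00173). With plain total counts as the scale, the groups overlapped.

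Cd27 (ENSMUSG00000030336.14, chr6:125232622-125237010, minus strand) was the most abundant receptor, at 388, 381, 199, 472 and 403 CPM in Ag, against 297, 286, 326, 238 and 284 CPM in Ag+Costim. All Ag libraries but replicate 3 lay above all Ag+Costim libraries. The log2 fold change was -0.36 (SE 0.21, edgeR BH-adjusted p = 0.325), and limma's voom gave -0.48 (adjusted p = 0.0198). Without Ag replicate 3 the log2 fold change was -0.52. The groups then lay apart, which follows from the place of that library alone and is no further support. Cd27 overlaps Vamp1 on the other strand. The library kit did not mark strand, so reads of overlapping genes on opposite strands cannot be told apart, which also holds for Tnfrsf9 (with Camta1), Traf2 (Gm13433), Traf3 (4930595D18Rik) and Traf5 (Gm26879).

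Tnfrsf18 (ENSMUSG00000041954.18, chr4:156026164-156028895, plus strand), which codes for GITR, lies beside Tnfrsf4. It was at 68.2, 68.4, 40.3, 75.2 and 79.2 CPM in Ag and at 58.7, 57.4, 69.5, 50.5 and 54.8 CPM in Ag+Costim. Here, too, Ag replicate 3 was the low library, and the ranges of both groups crossed. Its log2 fold change came to -0.19 (SE 0.18, edgeR BH-adjusted p = 0.524), with -0.32 without Ag replicate 3 and -0.10 without Ag replicate 5. An antisense gene, Gm16008, overlaps it.

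Of the adaptors, Traf2 (ENSMUSG00000026942.13, chr2:25517982-25546940, minus strand), the TRAF that binds most of these receptors and holds the cIAP ligases, was at 60.3, 76.8, 67.0, 63.4 and 98.5 CPM in Ag and at 93.8, 87.5, 98.5, 96.6 and 91.1 CPM in Ag+Costim. Only Ag replicate 5 reached the Ag+Costim range, so leaving it out had to set the groups apart. Means were 73.2 ± 15.4 CPM and 93.5 ± 4.39 CPM. Its log2 fold change was 0.35 (SE 0.15, 95% interval 0.02 to 0.69, edgeR BH-adjusted p = 0.266), 0.24 in DESeq2 (adjusted p = 0.104) and 0.55 with limma's voom (adjusted p = 0.000383). With total counts or the upper quartile as the scale it was 0.11 or 0.13.

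Traf1 (ENSMUSG00000026875.14, chr2:34941750-34961772, minus strand), an NF-kB target that has no RING domain and joins TRAF2 at the 4-1BB tail, was the most abundant adaptor. It was at 351, 211, 149, 422 and 193 CPM in Ag and at 216, 209, 239, 154 and 189.5 CPM in Ag+Costim. Ag replicates 1 and 4 stood above all other libraries, and Ag replicates 2, 3 and 5 were within or just below the Ag+Costim range. The log2 fold change was -0.40 (SE 0.28, 95% interval -1.01 to 0.22, edgeR BH-adjusted p = 0.388) and -0.78 with limma's voom (adjusted p = 0.00594). Without Ag replicate 4 edgeR gave -0.16, and it gave -0.54 without Ag replicate 3.

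Traf5 (ENSMUSG00000026637.13, chr1:191997205-192092559, minus strand), an adaptor of OX40, GITR and CD27, had the same order among the highest libraries. It was at 74.9, 43.2, 37.2, 101 and 51.8 CPM in Ag and at 53.7, 55.2, 57.0, 49.0 and 51.7 CPM in Ag+Costim. The Ag+Costim libraries lay inside the Ag range, with a 1.16-fold range against 2.72-fold in Ag. Its log2 fold change was -0.21 (SE 0.25, edgeR BH-adjusted p = 0.601). It was 0.05 without Ag replicate 4, so edgeR gave no direction, while limma's voom gave -0.59 (adjusted p = 0.0113).

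Birc3 (ENSMUSG00000032000.17, chr9:7848699-7873186, minus strand), which codes for the ligase cIAP2 and is an NF-kB target, was at 53.6, 33.2, 30.7, 56.4 and 33.9 CPM in Ag and at 43.8, 42.5, 46.5, 35.4 and 36.7 CPM in Ag+Costim. Again Ag replicates 1 and 4 were highest and the Ag+Costim libraries lay between these and the other Ag libraries. The means, 41.5 ± 12.4 CPM and 41.0 ± 4.76 CPM, gave a log2 fold change of -0.02 (SE 0.20, 95% interval -0.46 to 0.42, edgeR BH-adjusted p = 0.959), whose sign changed when single libraries were left out.

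Traf3 (ENSMUSG00000021277.16, chr12:111166370-111267153, plus strand), which restrains non-canonical NF-kB signalling by holding the kinase NIK for degradation, varied least among the Ag libraries (1.31-fold), but not among those of Ag+Costim (1.27-fold, against 1.10-fold for Tnfrsf1b). It was at 21.1, 22.8, 27.7, 23.9 and 23.7 CPM in Ag and at 25.5, 27.9, 31.4, 27.7 and 24.7 CPM in Ag+Costim. The log2 fold change was 0.20 (SE 0.12, edgeR BH-adjusted p = 0.333), close to the 0.24 of the better expressed genes, and it was -0.09 with total counts. Only Ag replicate 3 kept the groups from being apart.

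**Figure D2:**
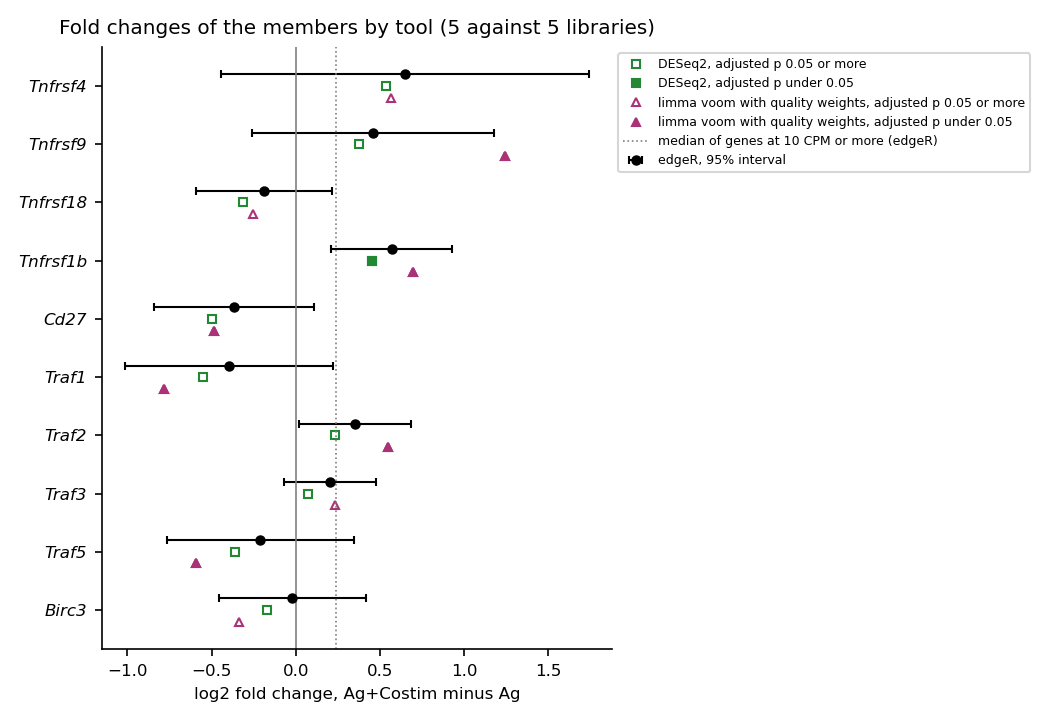
Log2 fold change (Ag+Costim minus Ag) of each gene by edgeR with its 95% interval, by DESeq2 and by limma's voom with quality weights, with filled symbols where the adjusted p was under 0.05. The dotted line is the edgeR median of 0.24 over genes at 10 CPM or more. The edgeR intervals of 8 genes cross 0, and those of Tnfrsf1b and Traf2 do not, though both of the latter hold the median of 0.24.

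The spread between libraries was larger in Ag than in Ag+Costim for all 10 genes, as it was for 96.5% of the genes at 10 CPM or more. The ratio of the SD of log2 CPM in Ag to that in Ag+Costim ran from 1.06 for Traf3 to 7.04 for Traf5, 6.80 for Tnfrsf1b and 6.35 for Tnfrsf9. Its median was 2.77 for the 10 genes and 3.93 for the better expressed genes. In Ag, Traf1, Traf5 and Birc3 were high and Tnfrsf9 and Traf2 low in the libraries with the fewest dividing-cell transcripts (replicates 1 and 4). Ag replicates 1 and 4 also had the highest sums of CD4 and regulatory T cell markers, though not the highest Cd4 itself. The summed B cell markers were higher in Ag replicates 1, 3 and 4 than elsewhere, though Ighm was not high in Ag replicate 3. That library was the lowest Ag library for Traf1, Traf5 and Birc3. The part of cell division and of RNA of other cells in these levels was not tested.

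**Figure D3:**
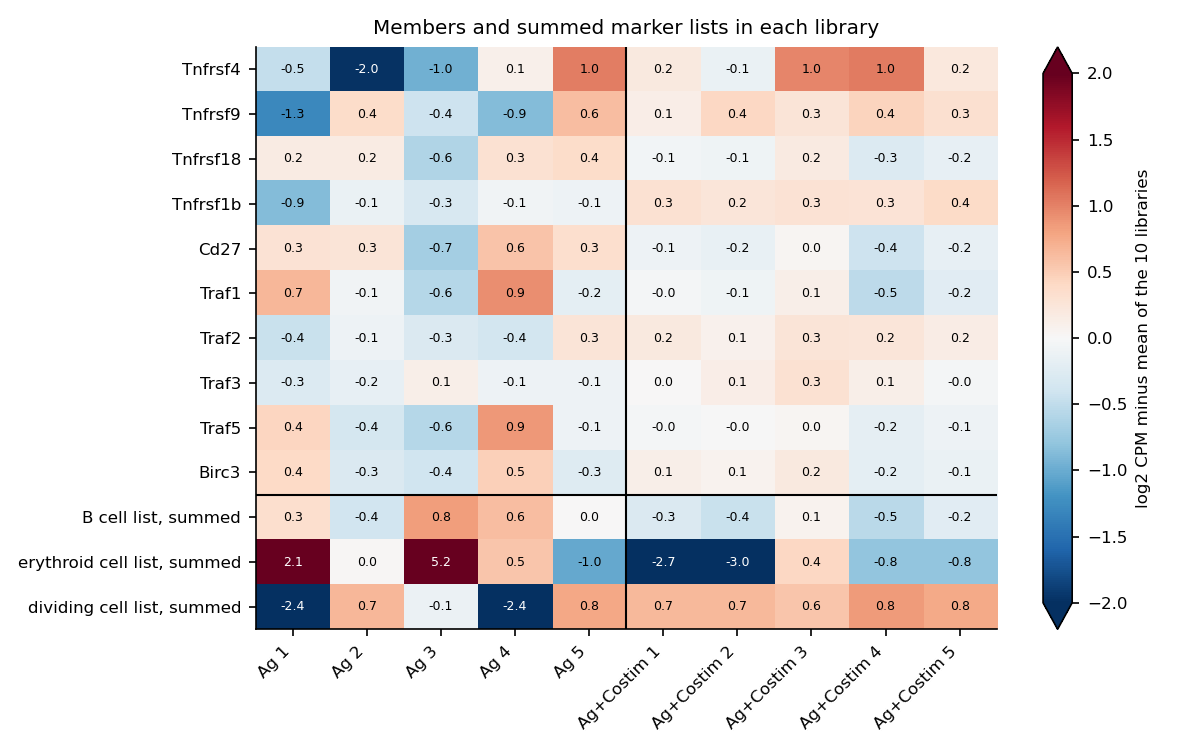
Log2 CPM of each gene, and of the summed markers of B cells, erythroid cells and dividing cells, in each library minus the mean of the 10 libraries, with colours capped at 2. Ag replicates 1 and 4 are at -2.4 for the genes of dividing cells and above 0 for Traf1, Traf5 and Birc3, and the Ag+Costim libraries stay near the mean in most rows.

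Levels can be set side by side between genes only per length. In TPM, transcript counts divided by their length and scaled to a common total, Cd27 was highest in Ag+Costim at 306 ± 37.6 TPM (n = 5), followed by Traf1 at 143 ± 23.8 TPM and Tnfrsf1b at 84.0 ± 3.46 TPM. Tnfrsf18 (78.1 ± 9.68 TPM), Tnfrsf9 (68.5 ± 5.23 TPM) and Traf2 (59.3 ± 2.25 TPM) came next, and each overlapped its neighbour in this order. Traf5 was at 45.3 ± 2.84 TPM and Birc3 at 25.8 ± 3.15 TPM. Tnfrsf4 (10.01 ± 3.46 TPM) and Traf3 (8.33 ± 0.849 TPM) were last and overlapped. In these cells the RNA of OX40 was thus at the level of the scarcest adaptor, and that of 4-1BB at the level of GITR and Traf2. In Ag every neighbour in the order overlapped except Birc3 (31.7 ± 16.4 TPM) and Traf3 (7.72 ± 1.64 TPM), with Cd27 at 459 ± 187 TPM, Tnfrsf9 at 51.5 ± 16.0 TPM and Tnfrsf4 at 7.23 ± 4.23 TPM.

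Over the 10 libraries, the genes whose log2 CPM followed Tnfrsf9 most closely were Ndufv1 (Pearson r = 0.99), a subunit of respiratory complex I, with Acsl5, Dera and Taf11 at the same rounded r. Ndufv1 was at 152 ± 81.3 CPM in Ag, against 212 ± 11.9 CPM in Ag+Costim. For Tnfrsf4 the closest were Cdk10 (r = 0.93), Tdrd3, Pomk and Ccdc166 (each r = 0.91). These values describe 10 libraries whose Ag members differ in many genes at once.

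Beyond the 10 genes, a list of 48 other genes of the pathway was read from the same fit. None passed edgeR's test. At an unadjusted p under 0.05, 7 were higher and 3 lower in Ag+Costim (20.8% of 48, against 18.6% of all genes), and their median log2 fold change was 0.01. The adaptors, ligases and kinases (25 genes) had a median of 0.14, with 6 of them higher and 1 lower at an unadjusted p under 0.05. At that p, 1915 of the 24262 genes tested were higher and 2586 lower. Of the 8626 genes at 10 CPM or more, 1746 were higher and 243 lower, with a median of 0.24, above that of the adaptors, ligases and kinases. The ligands (8 genes) had a median of -0.37 and the other TNF receptors (11 genes) one of -0.54, against -0.32 over all genes tested. Among these 19, 1 was higher and 2 lower at an unadjusted p under 0.05. Some were near the floor, with means of 0.705 CPM or less in both groups for Tnfsf18, Cd70 and Ltbr. None of the 4 other costimulatory receptors (Cd28, Icos, Cd226 and Cd2) had an unadjusted p under 0.05.

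Traf6, the adaptor of Toll-like and interleukin-1 receptors, had the lowest p of the list. It was at 29.9, 33.3, 29.4, 29.3 and 25.4 CPM in Ag and at 49.5, 41.2, 42.5, 52.0 and 45.4 CPM in Ag+Costim, so the groups lay apart. Its log2 fold change was 0.65 (SE 0.12, unadjusted p = 0.000266, edgeR BH-adjusted p = 0.134), and DESeq2 gave 0.52 (adjusted p = 0.0033). Chuk, the IKK alpha subunit of the IkB kinase, was at 67.9 ± 10.6 CPM in Ag, against 101 ± 8.56 CPM in Ag+Costim, with no overlap and a log2 fold change of 0.58 (SE 0.14, edgeR BH-adjusted p = 0.154). Tank and Tbk1, an adaptor and a kinase that work together downstream of TRAFs, also lay apart, with log2 fold changes of 0.45 (SE 0.13) and 0.43 (SE 0.14) and edgeR BH-adjusted p of 0.203 and 0.227. These 4 genes and Lta and Xiap passed in DESeq2, the first 4 higher and the last 2 lower. DESeq2 called 2.58% of all genes higher and 19.8% lower, and 848 and 267 of the 8626 genes at 10 CPM or more. The same 4 were all of the 48 whose groups lay apart, higher in Ag+Costim, against 4.48% of all genes. Each of the 4 had a mean over 10 CPM, and 976 of those 8626 genes lay apart in this direction.

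Traf7, Ripk1 and Tnfrsf8 overlapped between groups and had log2 fold changes of 0.40, 0.31 and 1.01, with edgeR BH-adjusted p between 0.256 and 0.266. Tnfrsf8, which codes for CD30, was below 5.1 CPM in every library. Lta, which codes for lymphotoxin alpha, went the other way, at 11.99 ± 4.54 CPM in Ag, against 7.71 ± 1.44 CPM in Ag+Costim (log2 fold change -0.64, SE 0.27, edgeR BH-adjusted p = 0.266). The ligands of the antibody targets, named here after their values were seen, were low. Tnfsf4 (OX40 ligand) was at 5.42, 0.262, 0.944, 6.50 and 2.26 CPM in Ag and at 0.839 to 2.20 CPM in Ag+Costim, so that Ag replicates 1 and 4 were again highest. Tnfsf9 (4-1BB ligand) was at 3.28, 12.4, 6.69, 4.18 and 13.5 CPM in Ag and at 7.31 to 13.7 CPM in Ag+Costim, and Ag replicates 1, 4 and 3 were its lowest libraries, as for Tnfrsf9.

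The transcripts of the 10 genes were compared next, as shares of each gene's counts. Of 55 annotated transcripts 51 were tested and 20 reached a mean share of 10% in either group. No gene of the 10 was called for a change of transcript usage (edgeR's diffSpliceDGE, all BH-adjusted p of 1), where 31 of 10441 genes tested (0.297%) were. The largest change of a mean share was 14.7 points, for Traf3-201 (46.1% ± 12.5 in Ag and 60.8% ± 22.6 in Ag+Costim). The lowest unadjusted gene-level p of the 10 was 0.248, for Tnfrsf4. All 20 transcripts overlapped between the groups.

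Tnfrsf9-204, the more abundant of 2 annotated forms without the transmembrane exon printed above, held 16.5%, 16.1%, 10.01%, 18.8% and 20.8% of the Tnfrsf9 counts in Ag and 19.9%, 16.6%, 17.2%, 23.3% and 19.8% in Ag+Costim. The means, 16.4% ± 4.06 and 19.3% ± 2.66 (SD, n = 5), differed by less than the spread in Ag. Tnfrsf9-205 and Tnfrsf9-201, which both keep the exon and start at different places, held 52.7% ± 4.21 and 17.9% ± 3.96 in Ag+Costim. Per molecule (counts divided by length), transcripts with the exon made up 79.8% ± 1.23 in Ag and 79.8% ± 2.06 in Ag+Costim. The PSI of the exon, 1 value per group made by the authors with Whippet, was 0.416 in Ag and 0.405 in Ag+Costim. Both tables thus gave nearly the same value in the 2 groups, but the transcript table put the transmembrane form near 80% and the splicing table near 40%.

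For the 21 bases of Traf2, transcripts with the stretch made up 69.6% ± 9.49 per molecule in Ag and 71.9% ± 2.18 in Ag+Costim, whereas the PSI was 0.0958 and 0.0772. In the annotation a single transcript, Traf2-202, carries the stretch, and it also has the nearer 3′ end (at 25518866, against 25517982 for Traf2-201). For the Traf3 exon, the transcript table gave 31.9%, 38.3%, 60.4%, 60.2% and 47.3% in Ag and 93.6%, 82.8%, 58.1%, 38.9% and 43.3% in Ag+Costim, a spread wider than any difference of means, and the PSI was 0.930 and 0.984. The exon of Cd27 (chr6:125234515-125234694, 180 bases) came out alike in both tables, at 91.3% ± 1.98 and 89.3% ± 3.08 in the transcripts and at 0.881 and 0.871 as PSI.

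Tnfrsf18-206, a form with a retained intron, held 28.7%, 27.0%, 0.98%, 29.5% and 0.85% of the Tnfrsf18 counts in Ag and 21.7% to 27.9% in Ag+Costim. Ag replicates 3 and 5 were near 0 and all other libraries alike. Another intron of the gene (71 bases) is kept in Tnfrsf18-203, which held 34.0% ± 5.59 in Ag and 35.3% ± 6.53 in Ag+Costim, whereas the PSI of that intron was 0.0240 and 0.0216. Tnfrsf4-203, a form of Tnfrsf4 annotated as non-coding, ranged from 0% to 34.2% in Ag and from 3.28% to 33.5% in Ag+Costim, on as few as 171 counts of the gene in the lowest library. Single transcripts held over 80% of the counts of Tnfrsf1b, Cd27, Traf5 and Birc3 in every library.

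**Figure D4:**
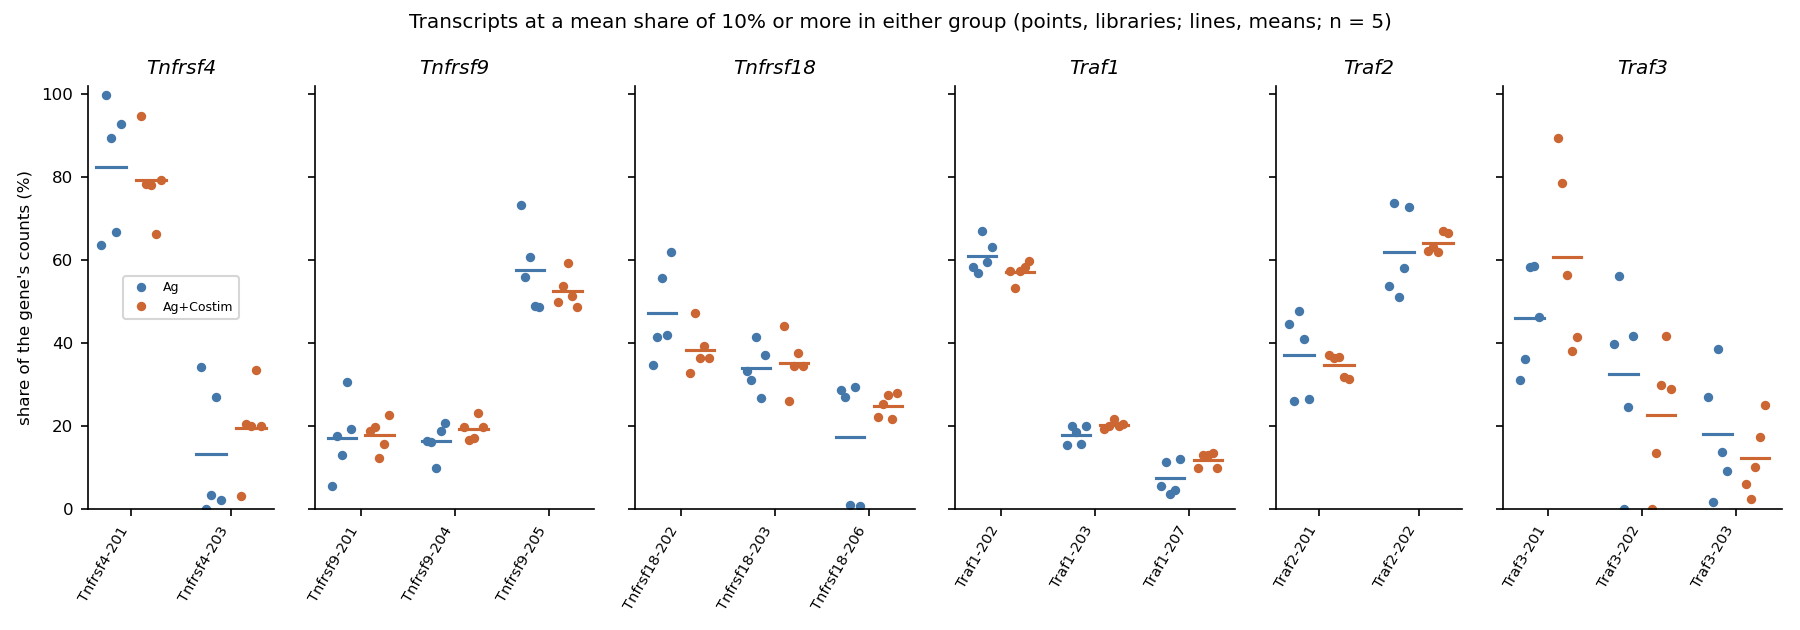
Share of the gene's counts (%) held by each transcript of 6 of the genes, for transcripts with a mean share of 10% or more, with a point per library and a line at the mean (n = 5 per group). The groups overlap in every transcript, Tnfrsf18-206 is near 0 in 2 Ag libraries, and the Traf3 transcripts spread most.

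The splicing table held 107 events of the 10 genes, of which 69 were core exons. It gives 1 value per group, so a difference has no replicate check. Its columns are named A and B, and they were read as Ag and Ag+Costim from the same letters in the sample titles, so every direction of PSI here rests on that reading. A PSI difference over 0.1 was found in 4 of the 107 events, against 5.87% of all 138940 events. They lie in Traf1 and Birc3, as linked pairs. At the 3′ end of Traf1, the end segment of 834 bases (chr2:34943258-34944091) was at 0.564 in Ag and 0.785 in Ag+Costim. The 2-base segment beyond it was at 0.426 and 0.208, so that the 2 ends lie next to each other. In the transcripts, Traf1-202, which ends at 34943258, held 61.0% ± 4.07 in Ag and 57.3% ± 2.43 in Ag+Costim. Traf1-201, which ends at 34943256, held 0.0140% and 0.0615%, so the transcripts did not show this shift. At the 5′ end of Birc3, the outer start segment of 41 bases (chr9:7872984-7873024) was at 0.550 in Ag and 0.369 in Ag+Costim, and the inner one of 161 bases at 0.451 and 0.632. In the transcripts, Birc3-201, which begins at the outer of these 2 starts, held 93.8% ± 3.32 in Ag and 96.0% ± 1.10 in Ag+Costim. Birc3-202, which begins at the inner one (7872983), held 3.42% ± 2.84 and 1.29% ± 0.681. These means moved opposite to the PSI, and the groups overlapped for both transcripts.

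At a difference over 0.05, 9 of the 107 events passed, against 11.9% of all events. They added a first exon of Tnfrsf9 (0.804 in Ag and 0.720 in Ag+Costim), a core exon of Traf1 (0.599 and 0.539) and, in Traf3, the exon printed above and 2 end segments. No core exon of a receptor differed by more than 0.05, and the 8 events of Tnfrsf1b and the 8 of Traf5 differed by at most 0.00123.

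**Figure D5:**
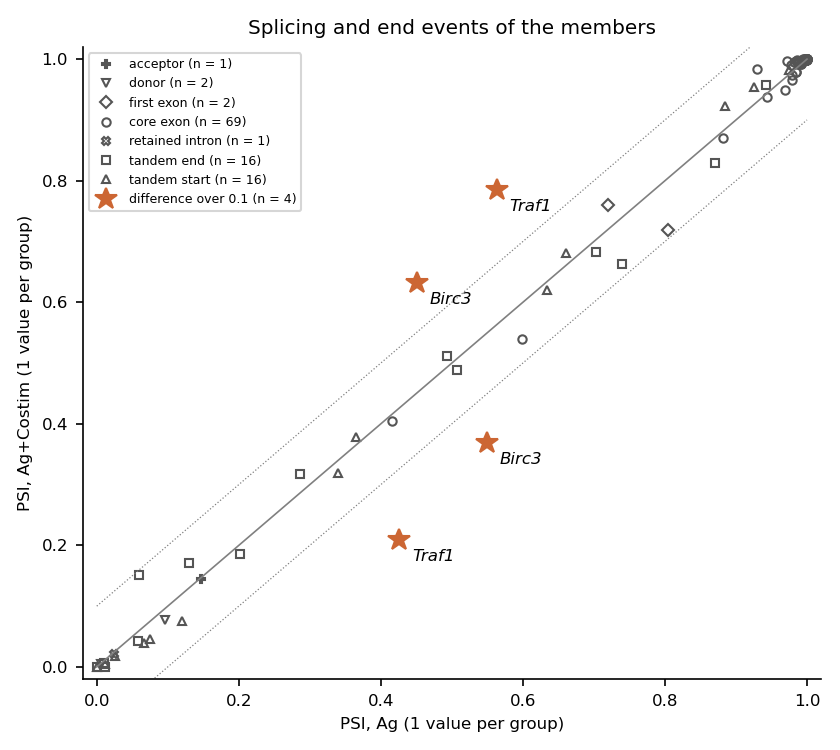
PSI of the 107 events in Ag (x axis) and in Ag+Costim (y axis), 1 value per group, with the type of event as the symbol, the line of equal values and dotted lines at a difference of 0.1. The 4 stars are the linked ends of Traf1 and the linked starts of Birc3, and most core exons lie near 1 in both groups.

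The first exon of Tnfrsf9 that differed begins at chr4:150927999, the start of Tnfrsf9-205. The promoter at this start is 1 of 2 of the 10 genes that hold a match to the kappa B consensus, the site family that NF-kB binds. The other belongs to Traf3. The consensus was searched on both strands in RefSeq promoters of build GRCm38.p6 (11 promoters for the 10 genes), each of 300 bases (250 before the start site and 50 after it), and 8.46% of all 32851 promoters of that length held it. The 250 bases before each start site are printed, and capitals mark the matched bases, which overlap for 2 matches in Tnfrsf9 and begin 43 bases before the start site there and 10 bases before it in Traf3 (chr4:150927749-150927998 and chr12:111166120-111166369, both plus strand).
Tnfrsf9 promoter: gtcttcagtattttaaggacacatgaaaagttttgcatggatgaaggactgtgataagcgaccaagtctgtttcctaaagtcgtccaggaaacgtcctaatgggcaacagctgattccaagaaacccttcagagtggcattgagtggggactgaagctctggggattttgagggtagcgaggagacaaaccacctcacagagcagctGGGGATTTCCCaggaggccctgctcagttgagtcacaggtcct
Traf3 promoter: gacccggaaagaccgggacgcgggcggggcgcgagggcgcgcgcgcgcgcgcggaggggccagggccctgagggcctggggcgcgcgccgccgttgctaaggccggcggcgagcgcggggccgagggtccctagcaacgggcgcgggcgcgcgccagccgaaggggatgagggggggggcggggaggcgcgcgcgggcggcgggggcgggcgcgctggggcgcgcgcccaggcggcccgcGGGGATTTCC
A match is a description of these letters only, and binding was not measured here.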

How the data were processed

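Per the labels and the study's methods, poly(A) RNA was made into libraries with SMART-Seq v4 and Nextera XT, which mark no strand. The authors aligned reads to mm10 with HISAT2 2.1.0 and obtained gene and transcript values with StringTie 2.1.0, and the deposited values are estimated counts in whole numbers. The authors' Whippet table holds the PSI as a fraction, 1 value per group. Its own columns of differences, probabilities, complexity and entropy were not used. Symbols were matched to GENCODE M21 identifiers, and 26345 entries outside that annotation (0.0458% to 0.308% of counts) were left out.

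Gene counts of 5 Ag and 5 Ag+Costim libraries were fitted with edgeR 4.0.16 (filterByExpr, TMM, robust quasi-likelihood test, BH over all genes, threshold 0.05) in R 4.3.3, beside DESeq2 1.42.0 and limma 3.58.1. Transcript usage was tested with diffSpliceDGE (share change over 0.1). The scripts were tested on simulated data. The 10 genes, set by symbol, and the lists were chosen with earlier results of these data known. Named pathway genes are the 8 with the lowest unadjusted p, since none had an adjusted p under 0.05. Named transcripts hold a mean share of 10% or more in either group, and named PSI events differ by over 0.1. For each antibody target, the 4 genes with the highest r of log2 CPM over the 10 libraries are named. A gene of the B cell list is not reported here.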

Additional observations from a re-analysis of the deposited data

Results flagged for a closer look

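The level of Tnfrsf18 in Ag replicate 3, 40.3 CPM, lay apart from the other 4 Ag libraries (68.2 to 79.2 CPM) by Dixon's test at 95%. It was the only one of 76 groups of 5 libraries (the levels of the 10 genes and 8 pathway genes, and the shares of 20 transcripts, in both conditions) to do so, and chance flags about 1 in 20. That library also had the fewest estimated counts (59598556) and the highest erythroid level (1103 CPM), and the part of these in the value was not tested.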

How the results depend on the processing

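The count of the 10 genes called, 0 in edgeR, was 0 with every other scaling, without the filter and in each fit that left out a library (0 to 0), and it was 1 in DESeq2 and 6 in limma's voom. The main edgeR fit called 0 of all 24262 genes tested, so a count of 0 is not particular to the 10 genes or the pathway genes. The share over all genes is not given for the other edgeR fits. The count of the 48 pathway genes called went from 0 to 6 in DESeq2 and 28 in limma's voom. Of the 28, 15 were higher and 13 lower, where 25.8% and 26.4% of all genes were. Of the 8626 genes at 10 CPM or more, voom called 4975 higher and 1082 lower. The count of pathway genes called was 0 in each fit that left out a library (0 to 0). The count of genes without overlap, 1, was 0 with total counts and 1 to 3 with libraries left out (Cd27 and Traf3 added without Ag replicate 3, Traf2 without Ag replicate 5). With fewer libraries the groups of any gene lie apart more easily. The share over all genes is not given for these settings, so the rise cannot be read as a result about the 10 genes. No gene of the 10 was called for a change of transcript usage under any alternative (0 to 0 with libraries left out). PSI events past the difference went from 4 to 9 at 0.05. The sign of the log2 fold change turned without the filter for Tnfrsf18 (0.0766), Traf5 (0.0398) and Birc3 (0.26), and for Traf3 with total counts (-0.0873) and the upper quartile (-0.0419). With libraries left out it ran from -0.34 to 0.051 for Traf5, from -0.11 to 0.12 for Birc3 and from 0.41 to 1.20 for Tnfrsf4. The causes were not tested. Library numbers 1 to 5 are shared between the groups, but same-numbered libraries did not deviate together (correlations of -0.30 to 0.25, and 0 of 5 Ag libraries closest to their own number), so the replicate block, which called 0 of the 10 genes, is an alternative only. Its Birc3 value was 0.0233. Per-group PSI values without replicates, and Tnfrsf4 at under 10 CPM, limit what these data can show.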

Other observations

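Of the core exons of the 10 genes, 62 had a PSI above 0.97 in both groups, and 56 of these (90.3%) were slightly higher in Ag+Costim. Over all genes at 10 CPM or more the same held for 89.9% of 68578 such exons, so the 10 genes stood at the level of the table. Over core exons with a difference over 0.1 in both tables, 51 of 62 moved the same way in the splicing table and in the transcript table, with columns A and B of the splicing table read as Ag and Ag+Costim.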
